A study of Mus musculus with 12 samples.

Results

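Microglia of App NL-G-F mice that had received rh Bri2 BRICHOS R221E were compared with those of WT mice given only the vehicle, to ask which transcripts still differ from the level of healthy untreated mice after the treatment and in which direction. The comparison takes 6 of the 12 sequenced libraries, 3 of each group, chosen by their labels alone and not by any measured value. The remaining 6 libraries come from vehicle-injected App NL-G-F mice and from WT mice given the chaperone. They share in the estimate of the spread and are used for reference values. App NL-G-F mice, below called App knock-in mice, are a line in which the mouse App gene carries a humanized amyloid-β sequence and familial Alzheimer's disease mutations under its own promoter, so that amyloid plaques form without overexpression of App. rh Bri2 BRICHOS R221E is the recombinant human BRICHOS domain, a chaperone, of Bri2 (gene Itm2b), changed at a single residue (R221E). All mice were male. Both groups began at 9 months of age, received 24 intravenous injections over 12 weeks and were left without injections for another 4 weeks. The treated App knock-in mice received 10 mg/kg of the chaperone per injection, and the vehicle WT mice received PBS. The comparison therefore crosses genotype and treatment together, and the share of each in a difference cannot be told apart from these 6 libraries.

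Microglia are the resident macrophages of the brain. In healthy tissue they express a homeostatic set of sensors, among them purine receptors such as P2ry12, and depend on signals such as TGF-β. Around amyloid plaques they take up a program known as disease-associated microglia (DAM), in which the receptor Trem2 and its adaptor Tyrobp are linked to higher expression of lipid-handling, lysosomal and antigen-presenting genes and to lower expression of the homeostatic set. CD11b, the surface protein used to isolate the cells with magnetic beads from papain-digested cortex, is also carried by border macrophages, monocytes and neutrophils.

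Counts on genes came to between 12433402 and 17889654 per library in the 6 compared mice, and 3 counts, taken as the detection limit, correspond to 0.168 to 0.241 CPM (counts scaled to a common library total, with TMM factors). The limit takes only counting error into account. Between mice of 1 group the counts varied more than that. The chi-square per degree of freedom was 8.59 to 25.3 in the compared groups and 5.81 to 34.1 over all groups. The first principal component, with 55.3% of the variance over all 12 libraries, separated the genotypes. The 12 microglial markers summed to 36285, 39261 and 39796 CPM in the vehicle WT mice and to 39678, 42191 and 42379 CPM in the treated App knock-in mice, so the isolates carried the labelled cell type in both groups. WT mouse 3 stood apart from WT mice 1 and 2 in markers of other cells, with 50.5 CPM of neutrophil markers against 473 and 389 CPM, and with 4052 CPM of choroid plexus markers against 934 and 889 CPM. In bulk samples such as these, fewer cells of a type and less RNA per cell cannot be told apart. Values per mouse are always given in the order of mice 1, 2 and 3 of the group, and log2 fold changes are treated App knock-in over vehicle WT unless another comparison is named.

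After treatment, 3074 of 15425 tested genes (19.9%) were upregulated and 2911 (18.9%) were downregulated relative to vehicle WT mice (edgeR's quasi-likelihood test, p-values adjusted after Benjamini and Hochberg and called under 0.05). These shares are the background against which every count of list members given later is to be read. The median log2 fold change was 0.61 among the upregulated and -0.65 among the downregulated genes, and -0.04 over all tested genes. At least a 2-fold change (an absolute log2 fold change of 1) was reached by 860 upregulated genes (5.58%) and by 961 downregulated genes (6.23%). The levels of the 3 treated App knock-in mice lay wholly above those of the 3 vehicle WT mice for 3829 genes (24.8%) and wholly below them for 3908 (25.3%). Leaving out WT mouse 3, which stood apart in its markers, left 2671 upregulated and 2450 downregulated genes.

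Genes close to the healthy level were counted by their intervals and not by a missed threshold. For 6488 genes (42.1%) the 95% interval of the fold change lay within 1.5-fold of vehicle WT mice in both directions. Of the 9440 genes that did not pass the test, 4702 had such an interval, and for the other 4738 the data allowed a larger difference in at least one direction. Another 1786 genes passed the test and still lay within 1.5-fold, so that they were changed by a small amount.

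The same genotypes, with the treatment the other way round, were compared in libraries that share no mouse with this comparison. These were vehicle App knock-in and treated WT mice. Both comparisons come from the same fit and share its estimate of the spread, so their lists are not independent. There, 3024 genes (19.6%) were upregulated and 2768 (17.9%) downregulated. Of the 3074 genes upregulated here, 2396 (77.9%) were also upregulated there, which is 79.2% of the list found there, and 3 were downregulated there. Of the 2911 genes downregulated here, 1897 (65.2%) were also downregulated there, which is 68.5% of that list, and 1 was upregulated there. Between treated and vehicle App knock-in mice, by contrast, 0 genes were upregulated and 1 was downregulated (0.00648%) at the adjusted threshold in edgeR's test, while 490 were higher and 1183 lower at an unadjusted p-value under 0.05. DESeq2's Wald test on all libraries called 5 and 119.

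**Figure D1:**
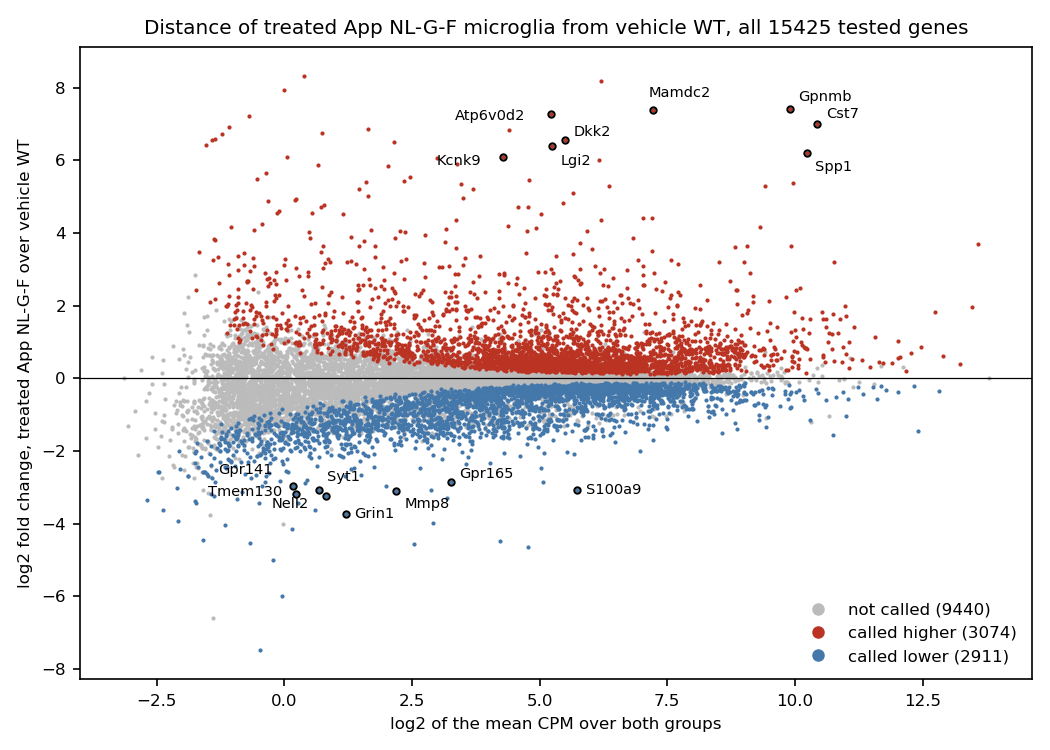
Log2 fold change of treated App knock-in over vehicle WT mice (vertical axis) against the log2 of the mean level in CPM over both groups (horizontal axis), with 1 point for each of 15425 tested genes and 3 mice per group. Red points are the 3074 genes called higher, blue points the 2911 called lower and grey points the 9440 not called. The 16 circled genes are the 8 largest rises and 8 largest falls that passed the test without overlap and with enough counts in both groups.

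Among protein-coding genes with enough counts in both groups, the largest rises were in genes of phagocytes, of the extracellular space and of the lysosome. Gpnmb, a transmembrane glycoprotein of phagocytes (ENSMUSG00000029816, chromosome 6 from 49036546 to 49070929), was at 3.42, 4.15 and 26.9 CPM in the vehicle WT mice and 1425, 1848 and 2436 CPM in the treated App knock-in mice. The groups did not overlap, although WT mouse 3 lay above the other WT mice, and the log2 fold change was 7.40 ± 0.70 (adjusted p = 7.73e-06), or 8.96 without WT mouse 3. Cst7, which encodes cystatin F, an inhibitor of lysosomal cysteine proteases (ENSMUSG00000068129, chromosome 2 from 150570415 to 150578944), was at 14.9, 17.2 and 33.1 CPM in the vehicle WT mice and 2424, 2760.4 and 3085 CPM in the treated App knock-in mice. Every treated App knock-in mouse was above every WT mouse, and the log2 fold change was 6.99 ± 0.30, a 127-fold difference (adjusted p = 1.64e-08). Atp6v0d2, a subunit of the vacuolar proton pump (ENSMUSG00000028238, chromosome 4 from 19876841 to 19922605), was at 0.205, 0.712 and 0.447 CPM in the vehicle WT mice and 61.6, 68.6 and 91.4 CPM in the treated App knock-in mice. It was near the detection limit in WT mice and well above it in all treated App knock-in mice (log2 fold change 7.28 ± 0.27, adjusted p = 6.21e-09).

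The others of the 8 largest rises were Mamdc2, a secreted matrix protein, Dkk2, a secreted modulator of Wnt signalling, Lgi2, a secreted leucine-rich repeat protein, Spp1, which encodes osteopontin, and Kcnk9, a leak potassium channel. Their log2 fold changes were 7.38, 6.56, 6.38, 6.21 and 6.09, with no overlap between the groups. Without WT mouse 3, the value of Mamdc2 was 8.36. The same 8 genes had log2 fold changes of 5.96 to 7.28 between vehicle App knock-in and vehicle WT mice, a comparison that shares its WT mice with the present one. A further 8 upregulated genes had 0 counts in all 3 vehicle WT mice. The most abundant of them was Corin, a membrane serine protease, with 38, 39 and 38 counts in the treated App knock-in mice. Next came Serpinb1c, a serpin, with 19, 39 and 30 counts, and Htr2b, a serotonin receptor, with 5, 16 and 31 counts.

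Among the largest falls under the same condition, Grin1, the obligatory subunit of NMDA receptors (ENSMUSG00000026959, chromosome 2 from 25291181 to 25319187), was at 5.07, 5.75 and 2.09 CPM in the vehicle WT mice and 0.387, 0.192 and 0.378 CPM in the treated App knock-in mice. All treated App knock-in mice lay below all WT mice, with 6, 3 and 5 counts against 74, 97 and 28 (log2 fold change -3.74 ± 0.53, adjusted p = 0.000166). S100a9, a calcium-binding protein of neutrophils (ENSMUSG00000056071, chromosome 3 from 90692632 to 90695721), was at 146, 122 and 17.8 CPM in the vehicle WT mice and 14.5, 13.9 and 5.36 CPM in the treated App knock-in mice. Both groups were separated, but WT mouse 3 was closest to the treated App knock-in mice (log2 fold change -3.07 ± 0.76, adjusted p = 0.00726), and without it the log2 fold change was -3.56. Gpr165, an orphan receptor on the X chromosome (ENSMUSG00000031210, chromosome X from 96713441 to 96719388), was at 14.4, 20.6 and 15.8 CPM in the vehicle WT mice and 2.39, 1.73 and 2.87 CPM in the treated App knock-in mice, with a log2 fold change of -2.87 ± 0.21 (adjusted p = 1.04e-06). The others were Nell2, a secreted neuronal glycoprotein (-3.23), Tmem130 (-3.19), Mmp8, the neutrophil collagenase (-3.11), Syt1, the calcium sensor of synaptic vesicles (-3.07), and the orphan receptor Gpr141 (-2.97). At lower counts, Wfdc21 had 0 counts in all 3 treated App knock-in mice and 32, 33 and 2 counts in the vehicle WT mice. Falls in Grin1, Nell2, Syt1, S100a9 and Mmp8 are falls in genes of neurons or neutrophils, whose marker lists are given further on.

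Promoter sequences are shown for the 2 largest rises and the 2 largest falls that have one among the RefSeq promoter windows used here, ranked among protein-coding genes that passed the test with no overlap and at least 10 counts in every mouse of the higher and 3 in every mouse of the lower group. Each runs from 250 bases before to 50 bases after the annotated start (GRCm38.p6), 5′ to 3′ on the strand of the gene. Capitals mark every match, on either strand, to 5 motifs of factors known in macrophages: GAGGAAGT (PU.1), CACGTG (the E-box bound by MiT/TFE factors of lysosomal genes), the interferon response motif, TGANTCA (AP-1) and CCAAT (NF-Y). Gpnmb has 1 match, to TGANTCA, and lies on the plus strand at chr6:49036268-49036567.
Gpnmb: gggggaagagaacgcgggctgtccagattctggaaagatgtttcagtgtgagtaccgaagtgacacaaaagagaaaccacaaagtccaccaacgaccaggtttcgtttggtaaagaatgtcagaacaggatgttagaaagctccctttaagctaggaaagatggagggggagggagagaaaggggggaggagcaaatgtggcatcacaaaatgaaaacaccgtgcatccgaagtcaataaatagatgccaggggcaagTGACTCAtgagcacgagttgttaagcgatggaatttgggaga
Cst7 also has 1 match to TGANTCA and lies on the plus strand at chr2:150570165-150570464.
Cst7: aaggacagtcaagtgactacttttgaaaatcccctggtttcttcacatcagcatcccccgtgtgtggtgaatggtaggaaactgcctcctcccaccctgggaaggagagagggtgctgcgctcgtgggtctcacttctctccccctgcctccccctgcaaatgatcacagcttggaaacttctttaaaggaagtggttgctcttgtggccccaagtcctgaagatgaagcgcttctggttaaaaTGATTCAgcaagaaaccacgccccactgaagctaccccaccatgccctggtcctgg
Grin1 has 2 matches to CACGTG and lies on the minus strand at chr2:25319138-25319437.
Grin1: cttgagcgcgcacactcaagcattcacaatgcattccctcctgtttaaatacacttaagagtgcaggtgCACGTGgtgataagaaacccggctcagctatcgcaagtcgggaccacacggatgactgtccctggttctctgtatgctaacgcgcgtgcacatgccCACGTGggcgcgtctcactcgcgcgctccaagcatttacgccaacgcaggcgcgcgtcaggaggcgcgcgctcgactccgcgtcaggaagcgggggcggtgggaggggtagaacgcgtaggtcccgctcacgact
Tmem130 has 0 matches to the 5 motifs and lies on the minus strand at chr5:144761529-144761828.
Tmem130: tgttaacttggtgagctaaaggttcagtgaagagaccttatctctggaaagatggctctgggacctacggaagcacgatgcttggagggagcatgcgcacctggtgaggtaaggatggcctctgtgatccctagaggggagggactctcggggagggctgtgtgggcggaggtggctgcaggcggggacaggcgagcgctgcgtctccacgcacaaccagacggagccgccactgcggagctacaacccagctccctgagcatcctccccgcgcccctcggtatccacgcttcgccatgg
Promoter windows were matched to 11357 tested genes. TGANTCA was found in 4.95% of all these promoters, in 5.53% of those of upregulated and in 5.20% of those of downregulated genes. The share with CACGTG was 9.84% of all, 12.2% of upregulated and 8.19% of downregulated genes, and that with the interferon response motif was 3.28%, 4.38% and 2.80%. GAGGAAGT was found in 3.22%, 3.74% and 3.84%, and CCAAT in 38.3%, 39.2% and 36.5%. These shares are descriptions of letters in a window and were not tested.

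Disease-associated microglia genes were the list farthest above the healthy level. Of 35 genes, 34 were upregulated in treated App knock-in mice and 0 downregulated, with a median log2 fold change of 3.20 against -0.04 over all tested genes. Lpl, the lipoprotein lipase, was at 29.9, 32.4 and 39.1 CPM in the vehicle WT mice and 1263, 1361 and 1380.0 CPM in the treated App knock-in mice, a 39.5-fold difference (log2 fold change 5.30 ± 0.11, adjusted p = 1.94e-10). Apoe, the main lipid carrier of the brain, was at 1698, 1673 and 1955 CPM in the vehicle WT mice and 21679.7, 24062 and 22870.2 CPM in the treated App knock-in mice (log2 fold change 3.69 ± 0.11, adjusted p = 1.19e-09). The 3 treated App knock-in mice lay above the 3 WT mice for both genes, and the values within a group were close together.

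Trem2, a lipid-sensing receptor of microglia, was at 852, 935 and 964 CPM in the vehicle WT mice and 2636, 2934 and 2939 CPM in the treated App knock-in mice. Its log2 fold change of 1.63 ± 0.08 (adjusted p = 3.22e-08) was close to that of its signalling adaptor Tyrobp (1.78 ± 0.09, adjusted p = 7.19e-08). Itgax, which encodes the integrin CD11c, rose by 5.39, the phosphatidylserine-binding receptor Axl by 3.61, the hypoxia-inducible factor Hif1a by 2.42, and the growth factor Igf1 by 4.42 on the log2 scale. The exception in the list was Fth1, the ferritin heavy chain, at 3745, 4816 and 3312 CPM in the vehicle WT mice and 4621, 5689.5 and 4468 CPM in the treated App knock-in mice, whose groups overlapped (log2 fold change 0.32 ± 0.16, adjusted p = 0.149). In vehicle App knock-in mice, compared with the same WT mice, 34 of the 35 were upregulated, against 20.1% of all genes there, with a median of 2.89.

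**Figure D2:**
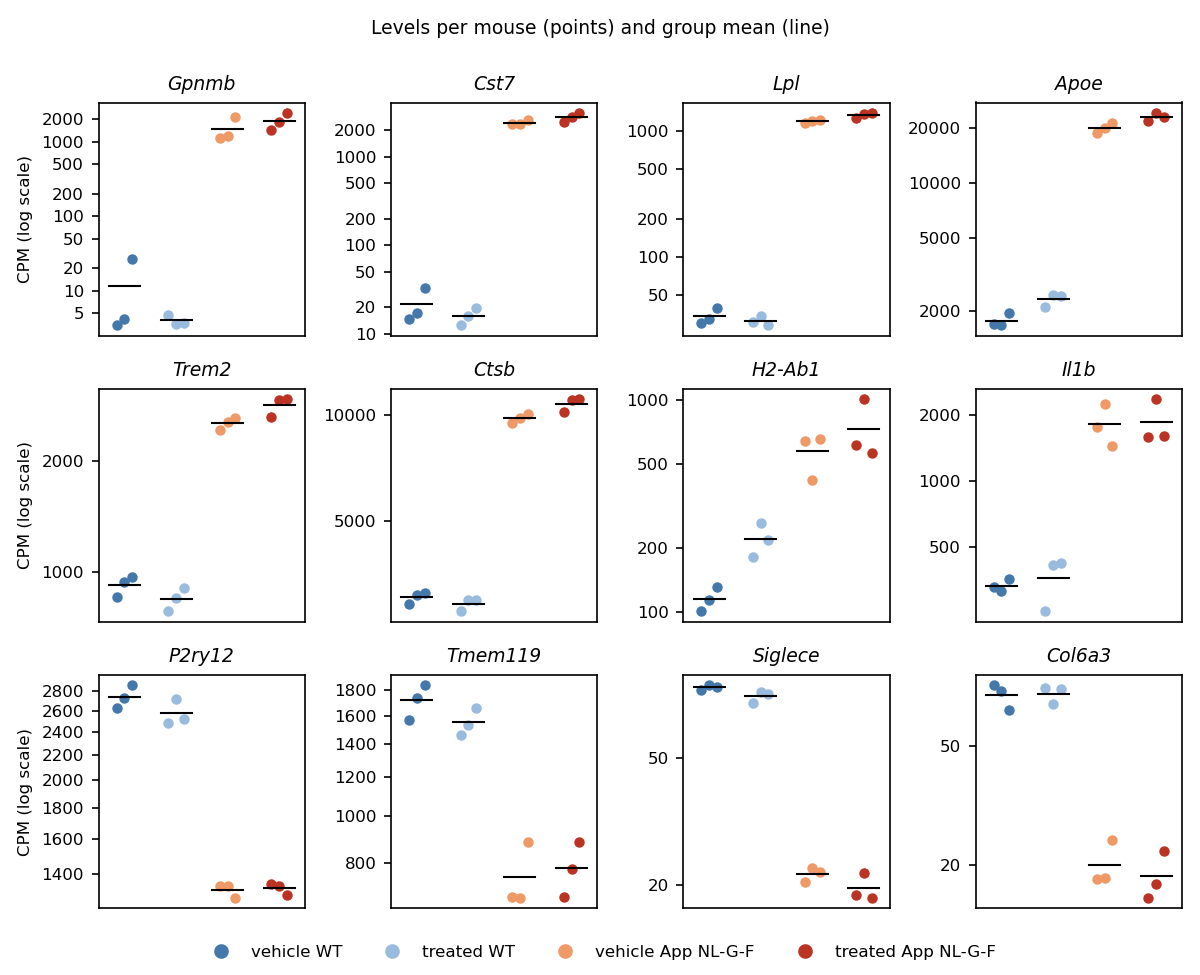
Levels of 12 genes in CPM on a log scale in each of the 12 mice (points, 3 per group, in the order of mice 1, 2 and 3) with the group mean (line). The 8 genes from Gpnmb to Il1b are higher in both App knock-in groups than in both WT groups without overlap, and P2ry12, Tmem119, Siglece and Col6a3 are lower.

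The lysosome was upregulated over most of its components. Among 50 lysosomal hydrolases, cathepsins and membrane proteins, 40 were upregulated and 4 downregulated, with a median log2 fold change of 0.81. Ctsb, the cathepsin B protease, was at 2916, 3082 and 3137 CPM in the vehicle WT mice and 10158, 10976 and 11059.6 CPM in the treated App knock-in mice (log2 fold change 1.82 ± 0.07, adjusted p = 8.65e-09). Ctsl rose by 1.98, Hexa, a subunit of β-hexosaminidase, by 1.63, and Ctse, an aspartic protease, by 4.72 on the log2 scale. None of these overlapped between the groups. The members that fell were named after their values were seen. They were Sgsh, a heparan sulfate sulfamidase, at 46.2, 39.3 and 43 CPM in the vehicle WT mice and 15.9, 11.7 and 13.7 CPM in the treated App knock-in mice (log2 fold change -1.64 ± 0.12, adjusted p = 1.27e-06), and Ctsk, Ids and Ctsf, with log2 fold changes of -1.07, -0.39 and -0.13. The number that fell was 2 without WT mouse 2 or without treated App knock-in mouse 2, since Ctsf and Ctsk lost their calls there. Each also lost its call without other single mice (adjusted p 0.0893 to 0.171 over all of these). With all mice kept, the number was also 2 with DESeq2 on all libraries or on the compared groups, and without the filter on low counts. Of the 26 genes of the vacuolar proton pump, 19 passed the filter on low counts. Of these, 16 were upregulated, among them Atp6v0d2, Atp6v1a (1.04) and Atp6v1c1 (0.90). The 1 downregulated gene was Atp6v0a2 (-0.68), which encodes a form of the membrane subunit a. Autophagy machinery moved less, with 10 of 36 genes upregulated, among them the receptor Optn (1.38) and Atg7 (0.94), 2 downregulated and 28 within 1.5-fold of the healthy level. Of 38 proteasome subunits, 21 were upregulated, 0 downregulated and 30 within 1.5-fold, and the number upregulated was 13 without WT mouse 1 or without WT mouse 3. Chaperones and co-chaperones are the class of proteins to which the injected domain belongs. Their list held 23 upregulated and 9 downregulated of 79 genes, with 45 within 1.5-fold. The largest fall in it was that of Hspg2 (-1.41), which encodes the matrix proteoglycan perlecan and not a chaperone. The co-chaperone Dnajb14 rose by 1.30, the chaperonin subunit Cct2 by 0.47 and the endoplasmic reticulum chaperone Hsp90b1 by 0.45 on the log2 scale. The number of upregulated members of this list was 14 without WT mouse 1. The number downregulated was 5 without WT mouse 2, WT mouse 3 or treated App knock-in mouse 3, and 13 without treated App knock-in mouse 2.

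Antigen presentation remained above the WT level. H2-Ab1, a chain of MHC class II, was at 101, 114 and 131 CPM in the vehicle WT mice and 615, 1013 and 565 CPM in the treated App knock-in mice. Treated mouse 2 was highest, and all 3 treated mice were above the WT mice (log2 fold change 2.67 ± 0.25, adjusted p = 6.52e-06). Cd74, the invariant chain that escorts class II molecules, had a log2 fold change of 3.20 ± 0.22 (adjusted p = 6.98e-07), and H2-Aa one of 2.89. Of the 10 class II genes tested, 8 were upregulated and 0 downregulated. The 2 that did not pass were H2-DMb2 (-0.18, adjusted p = 0.466) and the class II transactivator Ciita (0.86, adjusted p = 0.0871). For class I, 21 of 22 genes were upregulated with a median log2 fold change of 0.79, among them H2-D1 (1.42), B2m (1.12), the loading chaperone Calr (0.82) and H2-M3 (1.14).

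Interferon-stimulated genes were raised less evenly, with 21 of 42 upregulated and 2 downregulated (median 0.42). Ifi204, Ifi27l2a and Oas1a rose by 1.47, 1.98 and 1.51 on the log2 scale. Against the direction of the list, Gbp7, a guanylate-binding GTPase, was at 57.7, 57.8 and 61.4 CPM in the vehicle WT mice and 17.8, 19.4 and 17 CPM in the treated App knock-in mice, a fall to well below the WT range (log2 fold change -1.70 ± 0.07, adjusted p = 8.65e-09). Its relative Gbp3 had a log2 fold change of -1.21.

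Cytokine and feedback genes were also higher. Il1b, the interleukin-1β precursor, was at 327, 314 and 354 CPM in the vehicle WT mice and 1597, 2366 and 1611 CPM in the treated App knock-in mice (log2 fold change 2.49 ± 0.23, adjusted p = 5.78e-06). Ptgs2, the inducible prostaglandin synthase, rose by 3.19 and Tnfaip3, a feedback inhibitor of NF-κB, by 1.26, while Il6ra, the interleukin-6 receptor, fell by 0.76 on the log2 scale. Of the 29 genes in the list, 15 were upregulated and 3 downregulated. The number upregulated was 10 without treated mouse 2, WT mouse 1 or WT mouse 3, and 18 without treated mouse 1. It was also 10 with edgeR on the compared groups alone. Among 32 immediate early genes, which tissue digestion is known to induce, 14 were upregulated and 2 downregulated, with Nr4a3 at 32.7, 28.9 and 33.5 CPM in the vehicle WT mice and 172, 389 and 123 CPM in the treated App knock-in mice and Gadd45b at a log2 fold change of 1.89. Treated mouse 2 was highest for Nr4a3. Without it the log2 fold change of Nr4a3 was 2.22, against 2.85 with all mice, and the number of downregulated immediate early genes was 5. That number was 0 without treated mouse 3 and 1 without treated mouse 1 or any 1 of the WT mice. The part of tissue digestion in these values was not tested.

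Chemokine genes split, with 13 of 37 upregulated and 11 downregulated. The chemokine Ccl6 rose by 3.20 and the receptor Cxcr4 by 3.26 on the log2 scale. Cx3cl1, the ligand of the microglial receptor Cx3cr1, was at 18.6, 19.6 and 15.3 CPM in the vehicle WT mice and 5.29, 3.33 and 4.61 CPM in the treated App knock-in mice, and both groups were well separated (log2 fold change -2.02 ± 0.17, adjusted p = 2.95e-06). Of 21 complement genes, 8 were upregulated, among them C1qa (0.70) and the integrin β2 chain Itgb2 (0.50), and 5 were downregulated, including the receptor C5ar2 (-0.64). The number of downregulated complement genes was 3 without any 1 of the treated App knock-in mice and 2 without WT mouse 3. C3, the central complement component, was at 14.2, 14.5 and 7.9 CPM in the vehicle WT mice and 78.2, 159 and 59.7 CPM in the treated App knock-in mice (log2 fold change 3.01 ± 0.45, adjusted p = 0.000243).

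Receptors of the myeloid surface moved in both directions. Pdcd1, the inhibitory receptor PD-1, was at 7.94, 7.29 and 8.27 CPM in the vehicle WT mice and 103 and 104 CPM in treated App knock-in mice 2 and 3, with mouse 1 just below these (log2 fold change 3.71 ± 0.12, adjusted p = 2.76e-09). Siglece, a sialic acid-binding inhibitory receptor (ENSMUSG00000030474, chromosome 7 from 43651070 to 43660161), was at 81.1, 84 and 83.2 CPM in the vehicle WT mice and 18.6, 21.8 and 18.3 CPM in the treated App knock-in mice (log2 fold change -2.08 ± 0.07, adjusted p = 3.8e-09), while Siglecf of the same family rose by 1.93 and Lilrb4a by 2.57. Over the 27 Siglecs and other inhibitory or paired receptors, 11 were upregulated and 8 downregulated. The list of 9 Fc receptors held 6 upregulated genes, among them Fcgr2b (0.83) and Milr1 (1.89). Milr1, the largest rise in it, encodes an inhibitory immunoglobulin-like receptor and not an Fc receptor. In this list 1 gene, the neonatal receptor Fcgrt, was downregulated (-0.39). TAM and scavenger receptors held 7 upregulated of 19, among them Axl, Scarb1 (1.20) and Colec12 (2.33), and 6 downregulated. Toll-like receptors and adaptors were split evenly at 7 up and 7 down of 24, with Cd14 (2.44) and Ly86 (0.996) among the former and Tlr5 (-1.38) among the latter. Tetraspanins included Cd63 (2.05) and Cd9 (1.62) among 12 upregulated of 24, and Tspan18 (-1.88) among 3 downregulated. The number upregulated was 7 without treated App knock-in mouse 3.

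Genes of growth and metabolism lay above the healthy level as well. Of 77 cytosolic ribosomal proteins tested, 74 were upregulated and 0 downregulated, with a median log2 fold change of 0.77. Rps2, a protein of the small subunit, was at 282, 309 and 273 CPM in the vehicle WT mice and 481, 554 and 484 CPM in the treated App knock-in mice (log2 fold change 0.81 ± 0.07, adjusted p = 2.06e-06), and Rpl10a and Rpl21 of the large subunit rose by 1.07 and 1.01. Summed over the list, ribosomal protein genes made up 19145, 21184 and 18292 CPM in the vehicle WT mice and 32416, 37488 and 29671 CPM in the treated App knock-in mice. The groups did not overlap on this sum. The cell cycle list held 24 upregulated and 1 downregulated gene of 37, at low levels, and the 1 fall was lost without any 1 of the mice but treated mouse 1. Cdk1, the mitotic kinase, was at 4.25, 3.68 and 3.73 CPM in the vehicle WT mice and 11.4, 13.1 and 15.3 CPM in the treated App knock-in mice (log2 fold change 1.77 ± 0.14, adjusted p = 2.4e-06). The mitotic cyclin Ccnb1 rose by 1.75 and the transcription factor E2f1 by 1.22.

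Oxidative phosphorylation moved in opposite directions in the nuclear genome and in the counted part of the mitochondrial genome. Of 86 nuclear genes, 70 were upregulated and 1 downregulated (median 0.47), with Cox4i1 (0.76), Ndufa1 (1.81) and the muscle-type subunit Cox6a2 (4.04) among those with the lowest p-values. The 1 that fell was Ndufa4l2 (-1.54), a gene also known in pericytes. Of the 8 mitochondrially encoded genes that passed the filter, 0 were upregulated and 6 downregulated (median -0.36), and mt-Nd1 was at 1962, 2365 and 1978 CPM in the vehicle WT mice and 1466, 1553 and 1371 CPM in the treated App knock-in mice (log2 fold change -0.52 ± 0.09, adjusted p = 0.000749). The other 5 of the 13 in the list, mt-Co2, mt-Co3, mt-Atp6, mt-Atp8 and mt-Nd4l, had 5 to 53 counts each over all 12 libraries and were not tested. The share of counts on mitochondrial genes, to which these 5 hardly add, was 1.62% to 1.88% in the vehicle WT mice and 1.08% to 1.20% in the treated App knock-in mice. Glycolysis and lactate transport held 14 upregulated and 2 downregulated (1 without treated mouse 3, WT mouse 2 or WT mouse 3) of 24 gene records, with the pyruvate kinase Pkm (1.52), Tpi1 (1.66) and Gpi1 (1.34) among those with the lowest p-values.

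Of 23 genes of cholesterol synthesis, 19 were upregulated and 0 downregulated (median 0.72). The regulator Srebf2 was at 85, 76.7 and 76.7 CPM in the vehicle WT mice and 161, 150.4 and 159.7 CPM in the treated App knock-in mice (log2 fold change 0.98 ± 0.07, adjusted p = 7.76e-07), and the enzymes Cyp51, Dhcr7 and Msmo1 rose by 1.54, 1.01 and 0.98. Among 26 genes of lipoproteins, cholesterol efflux and lipid storage, 14 were upregulated and 4 downregulated, with the fatty acid-binding protein Fabp5 (4.41) and the cholesterol ester hydrolase Nceh1 (2.76) next to Apoe and Lpl. The efflux pump Abca1 had a log2 fold change of -0.49 (adjusted p = 0.000122), in the opposite direction. Amino acid transporters were split at 9 up and 12 down of 31, with Slc36a4 (1.17) and the glutamine carrier Slc1a5 (1.14) among the former and the leucine carrier Slc43a2 (-0.70) among the latter. NADPH oxidase and antioxidant genes were upregulated in 15 of 28, among them Cybb (1.77), Cyba (0.99) and Prdx4 (1.87). Downregulated were 2 of them, or 4 with the replicate number as a block and 1 without treated mouse 1, treated mouse 3 or WT mouse 3. Iron genes held 3 upregulated and 5 downregulated of 16, with the transporter Slc11a1 up by 1.04 and the iron exporter Slc40a1 at 162, 172 and 175 CPM in the vehicle WT mice and 69.2, 74.2 and 68.1 CPM in the treated App knock-in mice (log2 fold change -1.27 ± 0.06, adjusted p = 3.7e-08).

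**Figure D3:**
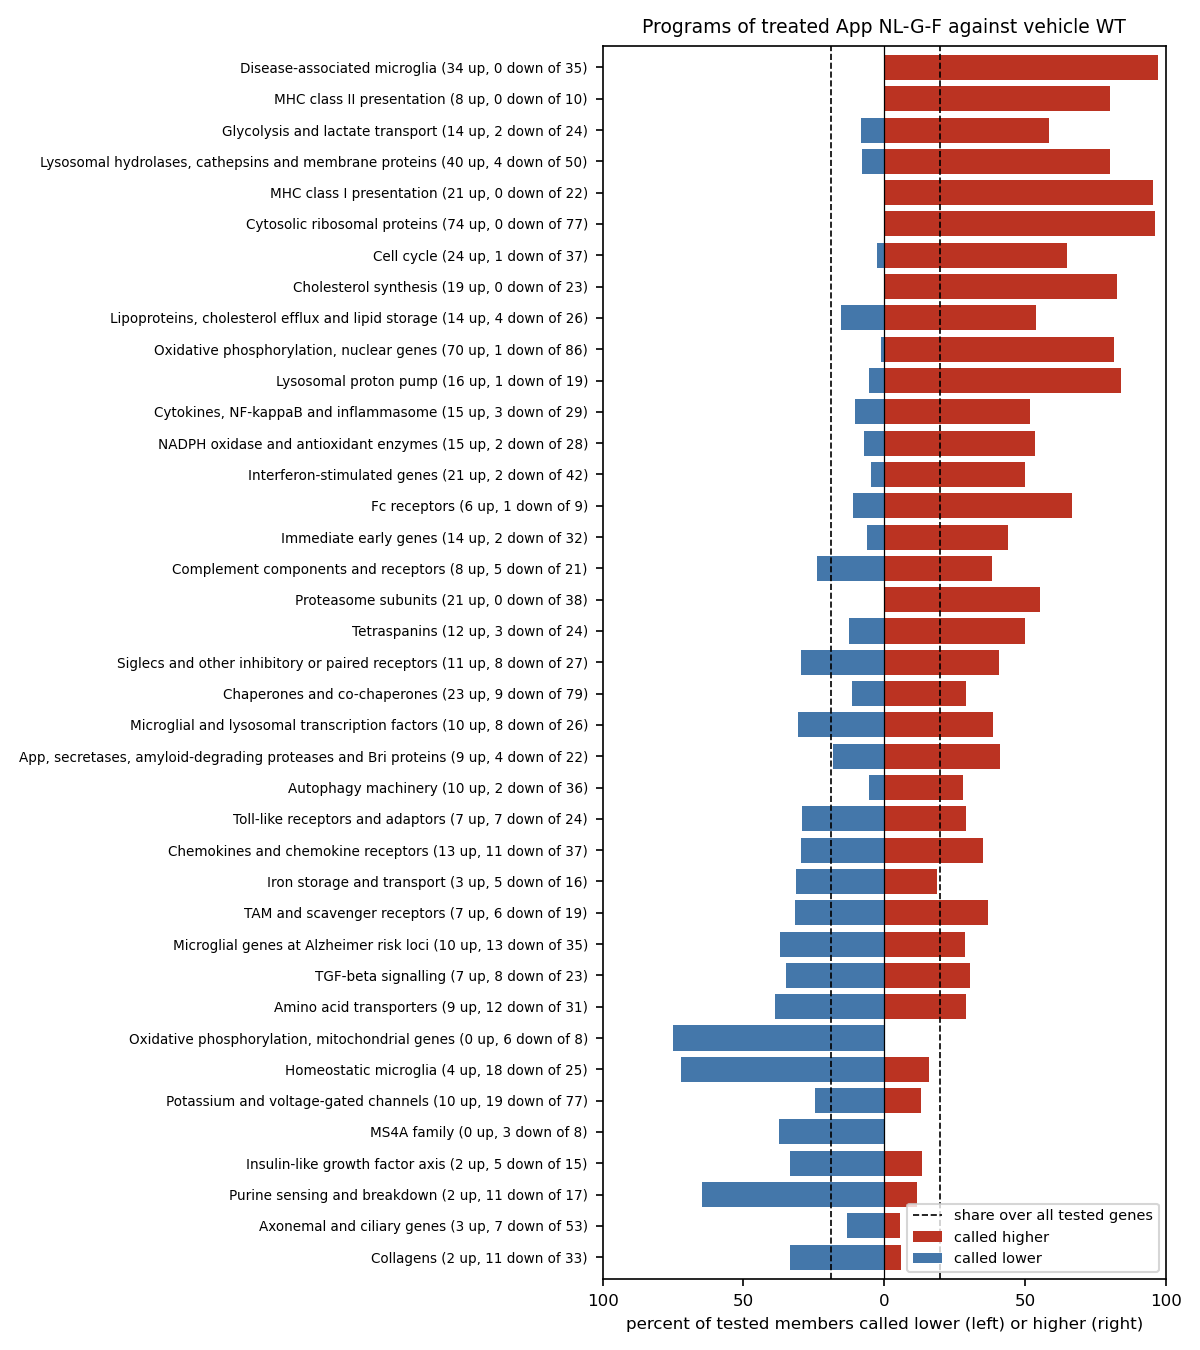
Percent of the tested members of 39 gene lists called lower (blue, left of 0) or higher (red, right of 0) in treated App knock-in mice than in vehicle WT mice, with the number of members called in each direction and the number tested beside each name. Lists are ordered by their median log2 fold change, highest at the top. The dashed lines mark the shares over all 15425 tested genes, 19.9% higher and 18.9% lower.

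Most of the homeostatic microglial program lay below the healthy level. P2ry12, the purine receptor that guides microglial processes, was at 2629, 2732 and 2864 CPM in the vehicle WT mice and 1347, 1335 and 1290.1 CPM in the treated App knock-in mice (log2 fold change -1.05 ± 0.06, adjusted p = 1.18e-07). Tmem119, a membrane protein used to identify microglia, was at 1570.3, 1739 and 1843 CPM in the vehicle WT mice and 683, 777 and 882 CPM in the treated App knock-in mice (log2 fold change -1.14 ± 0.12, adjusted p = 1.83e-05). Both were lower in every treated App knock-in mouse than in every WT mouse, at about the levels seen in vehicle App knock-in mice (1336, 1339 and 1279 CPM and 683, 680.4 and 884 CPM). Of 25 homeostatic genes, 18 were downregulated, with a median log2 fold change of -0.39. Many of the differences were small, since for 13 of the 25 the 95% interval lay within 1.5-fold of the WT level, against 42.1% of all genes. Crybb1, a crystallin found in microglia, had the largest fall, -1.999 ± 0.10 on the log2 scale, and the fructose transporter Slc2a5 and the fractalkine receptor Cx3cr1 had log2 fold changes of -0.98 and -0.39. Going against the list, 4 members were upregulated, among them Gpr84 (0.82), Fcrls (0.52) and Mef2c (0.29). Aif1, which encodes the microglial marker Iba1, was at 224, 249 and 243 CPM in the vehicle WT mice and 216, 258 and 218 CPM in the treated App knock-in mice. Its groups overlapped, and the log2 fold change of -0.05 ± 0.08 (95% interval -0.23 to 0.13, adjusted p = 0.66) lay within 1.5-fold. Itgam encodes CD11b, the protein used for the isolation. It was at 516, 517 and 501 CPM in the vehicle WT mice and 428, 472 and 447 CPM in the treated App knock-in mice (log2 fold change -0.19 ± 0.06, adjusted p = 0.0365). Its call was lost without any 1 of the mice but treated mouse 2 (adjusted p 0.061 to 0.119). With all mice kept, it was lost with DESeq2 on all libraries (adjusted p = 0.0589) and on the compared groups (0.102). It was also lost in edgeR with DESeq2's size factors (0.068).

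Purine sensing and breakdown also lay below the healthy level, with 11 of 17 genes downregulated and 2 upregulated (median -0.60, or -0.38 without treated mouse 2). P2ry13 was at 1024, 1001 and 1129 CPM in the vehicle WT mice and 626, 622 and 616 CPM in the treated App knock-in mice, and neither group reached the range of the other (log2 fold change -0.76 ± 0.06, adjusted p = 1.06e-06). The rises were in P2rx4, an ATP-gated channel also found on lysosomes (1.19), and Enpp1, an ectonucleotidase (1.26). Genes of TGF-β signalling were split at 7 up and 8 down of 23. The decoy receptor Bambi rose by 2.20 and Tgfbr2 by 0.68, while Tgfbr1 and the co-receptor Eng had log2 fold changes of -0.42 and -0.98. Among transcription factors of microglia and lysosomes, Bhlhe40 (2.98), Hif1a (2.42) and Mitf (0.89) were in the 10 upregulated of 26, and Maf (-0.97) and Sall1 (-0.73) in the 8 downregulated, a number that was 5 without treated App knock-in mouse 1.

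Of 35 microglial genes at Alzheimer risk loci, 10 were above and 13 below the level of vehicle WT mice, and 19 were within 1.5-fold of it. Those above included Apoe, Ctsb, Trem2 and the lysosomal progranulin Grn (0.998). Those below included Cd33 (-0.68), Bin1 (-0.44), Inpp5d (-0.42) and the MS4A genes Ms4a6b (-1.35), Ms4a4a (-1.25) and Ms4a6d (-0.38), which were also the 3 downregulated of the 8 tested members of that family. The call of Ms4a6d was lost without treated mouse 1 or 2 or WT mouse 2 or 3 (adjusted p 0.0555 to 0.0984).

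Border macrophages, which line the vessels and meninges, had lower markers in treated App knock-in than in vehicle WT mice. Of 10 markers, 8 were downregulated and 0 upregulated, and they summed to 1442, 1455 and 1559.5 CPM in the vehicle WT mice and 669, 563 and 683 CPM in the treated App knock-in mice. Mrc1, the mannose receptor, was at 209, 199 and 234 CPM in the vehicle WT mice and 112, 77 and 104 CPM in the treated App knock-in mice (log2 fold change -1.13 ± 0.14, adjusted p = 7.56e-05). The scavenger receptors Stab1 and Cd163 had log2 fold changes of -1.35 and -1.12, and the transglutaminase F13a1 one of -1.10. Both groups were separated for each of these genes, and vehicle App knock-in mice had 609.8, 544 and 734 CPM of the same markers.

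Neutrophil markers fell farthest of all lists, with 10 of 12 downregulated and a median log2 fold change of -3.12. They summed to 473, 389 and 50.5 CPM in the vehicle WT mice and 43.3, 37.7 and 19.5 CPM in the treated App knock-in mice, so that WT mouse 3 was close to the latter. The number of downregulated markers was 5 without treated App knock-in mouse 2 or 3, 6 without WT mouse 1 and 11 without WT mouse 3. Retnlg, a secreted neutrophil protein, was at 18.1, 19.9 and 1.42 CPM in the vehicle WT mice and 1.81, 1.54 and 1.28 CPM in the treated App knock-in mice, and WT mouse 3 lay inside the range of the treated App knock-in mice (log2 fold change -3.09 ± 0.79, adjusted p = 0.00927). Monocyte markers were downregulated in 4 of 7, and the highest and lowest sums were 53.3 and 20 CPM in WT mice and 26.7 and 10.3 CPM in treated App knock-in mice. The monocyte receptor Ccr2 was at 13.6, 13 and 12.1 CPM in the vehicle WT mice and 7.55, 8.25 and 5.21 CPM in the treated App knock-in mice, with no overlap (log2 fold change -0.87 ± 0.20, adjusted p = 0.00495).

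Markers of vessels fell below the WT level too. Of 10 endothelial markers, 9 were downregulated, and their sum was 706, 797 and 711 CPM in the vehicle WT mice, 496, 675 and 559 CPM in the vehicle App knock-in mice and 414, 437 and 477 CPM in the treated App knock-in mice. Pecam1, an adhesion protein of endothelial cells, was at 79.8, 90.4 and 87.8 CPM in the vehicle WT mice and 26.1, 26.1 and 27.7 CPM in the treated App knock-in mice (log2 fold change -1.69 ± 0.13, adjusted p = 1.82e-06), and the tight junction protein Cldn5 and the cadherin Cdh5 had log2 fold changes of -1.43 and -1.54. Of 11 mural markers, which mark pericytes and smooth muscle, 10 were downregulated with a median of -1.06, whereas against the same WT mice 2 were below in vehicle App knock-in mice, where 16.9% of all genes were, with a median of -0.53. Whether the 2 App knock-in groups differ in this was tested gene by gene, and 0 of these markers passed between them. Pdgfrb, the receptor that keeps pericytes on vessels, was at 18.8, 17.4 and 18.6 CPM in the vehicle WT mice and 10.7, 5.63 and 10.3 CPM in the treated App knock-in mice and at 18.1, 20.7 and 12.4 CPM in vehicle App knock-in mice (log2 fold change -1.05 ± 0.24, adjusted p = 0.00467). Vtn and Rgs5, also expressed by pericytes, had log2 fold changes of -1.18 and -0.99.

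Neuronal markers were low in all libraries and fell in 9 of 11 (median -1.38), with sums of 58.4, 50.8 and 46.4 CPM in the vehicle WT mice and 25.4, 23.5 and 22.6 CPM in the treated App knock-in mice. Snap25, a protein of synaptic vesicle fusion, was at 6.98, 8.12 and 6.56 CPM in the vehicle WT mice and 2.13, 2.82 and 2.11 CPM in the treated App knock-in mice (log2 fold change -1.61 ± 0.19, adjusted p = 4.58e-05). Oligodendrocyte markers summed to 14532, 17333 and 9928 CPM and 6554, 5383 and 4669 CPM, with no overlap, although 2 of the 11 passed the test, Mobp (-1.55, adjusted p = 0.0108) and Mbp (-1.44, adjusted p = 0.0159), both of myelin. The call of Mbp was lost without treated mouse 3 or WT mouse 2 (adjusted p = 0.0587 and 0.0648). Of the 8 choroid plexus markers, 0 passed in edgeR's test, but 4 were downregulated once the replicate number was blocked and 3 without WT mouse 1 or WT mouse 2. Of 7 fibroblast markers, 1 was downregulated, or 3 with that block and 2 without WT mouse 1, WT mouse 2 or treated mouse 3. Of 7 oligodendrocyte precursor markers, 1 passed, the proteoglycan Cspg4, which was upregulated (3.57), and of 6 T and NK cell markers 1, the receptor Klrb1c (3.15). Ependymal (6 tested), B cell (7) and erythroid (5) markers had 1 downregulated member each and 0 upregulated. The ependymal call was lost without treated mouse 2, WT mouse 1 or WT mouse 3, and the erythroid call without treated mouse 1 or 3 or WT mouse 1 or 2. Without treated mouse 3 there were 2 ependymal calls, without treated mouse 2 there were 2 erythroid calls, and without WT mouse 3 there were 2 B cell calls.

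**Figure D4:**
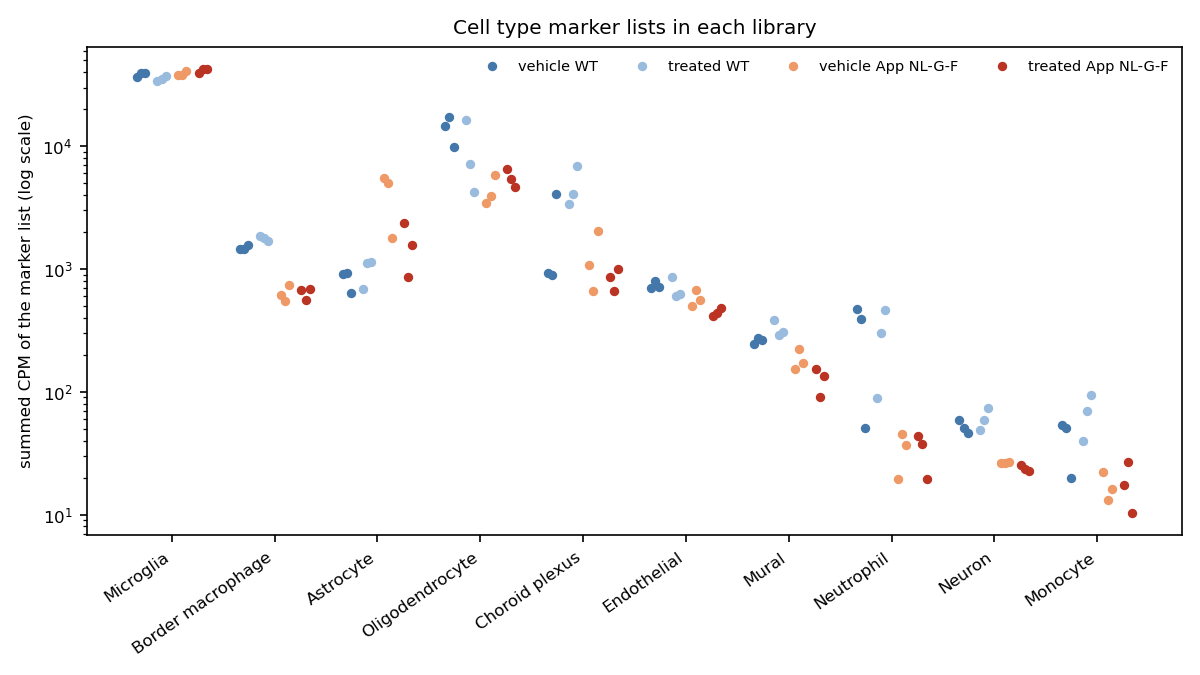
Summed CPM (log scale) of 10 lists of cell type markers in each of the 12 libraries, with 1 point per mouse and the groups in the order of the key. Microglial markers lie between 33957 and 42379 CPM in all 12 mice. Border macrophage, endothelial, mural and neuronal sums of the 3 treated App knock-in mice lie below those of the 3 vehicle WT mice, and the neutrophil and choroid plexus sums of WT mouse 3 lie apart from those of WT mice 1 and 2.

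Collagens lay on the low side, while the downregulated shares of ion channels and ciliary genes are to be read against the 18.9% of all genes. Of 33 collagen genes tested, 11 were downregulated and 2 upregulated (median -0.82, against -0.39 in vehicle App knock-in mice). The median was -0.54 without WT mouse 3. Col6a3 was at 79.6, 76.3 and 66.1 CPM in the vehicle WT mice and 15.5, 17.3 and 22.1 CPM in the treated App knock-in mice and at 17.9, 18 and 24.2 CPM in vehicle App knock-in mice (log2 fold change -2.02 ± 0.15, adjusted p = 8.65e-07), and Col4a1, a basement membrane collagen, was at 38.2, 47.6 and 41.4 CPM in the vehicle WT mice and 17.4, 13.1 and 17.8 CPM in the treated App knock-in mice (log2 fold change -1.40 ± 0.20, adjusted p = 0.000179). Of 77 potassium and voltage-gated channel genes, 19 were downregulated, among them Kcnd1 (-1.32), and 10 upregulated, among them Kcnk9, Cacna1a (3.09) and the inward rectifier Kcnj2 (2.47). Of 53 axonemal and ciliary genes, 7 were downregulated, including Cfap74 (-0.89) and the dynein Dnah2 (-1.26), and 3 upregulated, a smaller share than that of all genes in both directions. The number downregulated was 3 without WT mouse 3 or treated App knock-in mouse 2 and 4 without treated App knock-in mouse 1, and the median of the list was -0.69, or -0.26 without WT mouse 3. That mouse had the highest choroid plexus sum of the 6, and without it the median of the choroid plexus markers was -0.20 in place of -1.28. The part of endothelial, mural or choroid plexus transcripts in these lists was not tested.

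The insulin-like growth factor axis held both a large rise and several falls. Igf1 was at 12.8, 11.7 and 15.2 CPM in the vehicle WT mice and 253, 308 and 286 CPM in the treated App knock-in mice, a 21.4-fold difference (log2 fold change 4.42 ± 0.12, adjusted p = 9.38e-10). Its binding proteins Igfbp4 and Igfbp7 had log2 fold changes of -0.996 and -1.30, while Igfbp5 was at 18.3, 15.2 and 17.9 CPM in the vehicle WT mice and 56.1, 26.8 and 62 CPM in the treated App knock-in mice (log2 fold change 1.496 ± 0.28, adjusted p = 0.00116). Over the list, 2 of 15 were upregulated and 5 downregulated, and the median log2 fold change was -0.56, or -0.16 without WT mouse 3.

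By its median, the astrocyte marker sum of treated App knock-in mice lay between those of vehicle WT and vehicle App knock-in mice, although both App knock-in groups overlapped. The 16 markers summed to 918, 926 and 642 CPM in the vehicle WT mice, 2361, 857 and 1567 CPM in the treated App knock-in mice and 5537, 4975 and 1773 CPM in the vehicle App knock-in mice. The sum of treated mouse 2 fell inside the WT range, and those of the other two lay above it. Gfap, the intermediate filament of reactive astrocytes, was at 34.5, 34 and 38.7 CPM in the vehicle WT mice and 394, 130.1 and 273 CPM in the treated App knock-in mice, still above the WT range in every mouse (log2 fold change 2.90 ± 0.41, adjusted p = 0.000164). It was at 847, 712 and 324 CPM in vehicle App knock-in mice, with a log2 fold change of 4.14 against the same WT mice. Of the other markers, Slc1a2, a glutamate transporter, passed narrowly (1.44, adjusted p = 0.0499, or 0.0519 with the replicate number as a block), and so did S100b in the other direction (-1.06, adjusted p = 0.0216). The call of Slc1a2 was also lost without treated mouse 1 or 3 or any 1 of the WT mice, with adjusted p-values of 0.0751 to 0.198, and that of S100b without treated mouse 3 or WT mouse 2, with 0.0762 and 0.0927. Aldoc had a log2 fold change of 1.27 (adjusted p = 0.0535). In all, 2 markers were upregulated and 1 downregulated. The number upregulated was 6 without treated mouse 2 and 1 without any other 1 of the mice. With all mice kept it was 4 with DESeq2 on all libraries and 5 without the filter on low counts. On the compared groups alone it was 6 with DESeq2 and 4 with edgeR, and it was 1 with the block. The median log2 fold change of the 16 markers was 0.84, so the count called does not place them at the WT level. In vehicle App knock-in mice 15 of the 16 were upregulated, with a median of 2.18.

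Clu, a secreted chaperone made by astrocytes and other cells, was at 129, 124 and 190.3 CPM in the vehicle WT mice and 346, 124 and 261 CPM in the treated App knock-in mice. Treated mouse 2 lay at the lower end of the WT range, the groups overlapped and the gene did not pass (log2 fold change 0.72 ± 0.41, 95% interval -0.18 to 1.62, adjusted p = 0.186). The interval includes both the WT level and a 2-fold rise. Prdx6, an antioxidant enzyme, was at 50.4, 50.4 and 41.7 CPM in the vehicle WT mice and 129, 111 and 108 CPM in the treated App knock-in mice and remained upregulated (log2 fold change 1.29 ± 0.22, adjusted p = 0.000747), with a log2 fold change of 1.95 in vehicle App knock-in mice. Within the treated group, Gfap, Clu and Igfbp5 were lowest in mouse 2, which also had the lowest astrocyte marker sum, and Prdx6 was lowest in mouse 3. The part of the number of astrocyte transcripts in these values was not tested.

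A small set of genes lay below the healthy level in treated but not in vehicle App knock-in mice. Of the 2911 downregulated genes, 31 had a mean in vehicle App knock-in mice at or above that of vehicle WT mice. Genes from the 8 with the lowest p-values among those above 1 CPM are described, without a further test, since they were chosen on these values. Lrp8, a receptor of reelin and apolipoprotein E (ENSMUSG00000028613, chromosome 4 from 107802261 to 107876840), was at 15.3, 13.1 and 16.7 CPM in the vehicle WT mice and 9.36, 7.17 and 9.52 CPM in the treated App knock-in mice and at 15.6, 18.7 and 15 CPM in vehicle App knock-in mice. Axin2, a feedback target of Wnt signalling (ENSMUSG00000000142, chromosome 11 from 108920349 to 108950783), was at 7.94, 9.96 and 7 CPM in the vehicle WT mice and 4.58, 4.41 and 4.31 CPM in the treated App knock-in mice and at 8.68, 11.2 and 6.22 CPM in vehicle App knock-in mice. For both, the treated mice lay below all mice of the other 3 groups. The log2 fold changes against vehicle WT mice were -0.79 ± 0.14 and -0.91 ± 0.20.

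Others of the 8 were the exchange factor Kalrn (-0.81), the Hippo pathway coactivator Wwtr1 (-0.93), the nuclear envelope protein Syne1 (-0.62), the collagen galactosyltransferase Colgalt2 (-1.14) and Tbcel (-0.44). Between treated and vehicle App knock-in mice, their log2 fold changes ran from -1.32 to -0.44, and 0 of the 8 passed there (adjusted p from 0.144 to 0.291). Mice 1 and 2 of the vehicle App knock-in group, which had higher astrocyte marker sums than mouse 3, were also above it for Kalrn, Axin2, Wwtr1, Syne1 and Colgalt2. The part of the astrocyte markers in these levels was not tested.

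The 1 gene that passed between the App knock-in groups in edgeR's test on all libraries was Cald1, an actin-binding protein of smooth muscle and other cells (ENSMUSG00000029761, chromosome 6 from 34598500 to 34775473). It was at 27.8, 26.2 and 27.3 CPM in the vehicle WT mice and 12.8, 10.8 and 11.6 CPM in the treated App knock-in mice, and at 18.3, 20.4 and 18.8 CPM in the vehicle App knock-in mice. The treated App knock-in mice were below all others, with a log2 fold change of -1.21 ± 0.08 against vehicle WT mice (adjusted p = 4.83e-07). Between the App knock-in groups the call was lost, with 0 genes downregulated, once the replicate number was blocked, with edgeR on these 2 groups alone, and without treated mouse 2 or 3 or vehicle App knock-in mouse 1 or 2. The mural marker sums, which were 243, 274 and 263 CPM in vehicle WT, 152, 222 and 171 CPM in vehicle App knock-in and 152, 91.3 and 135 CPM in treated App knock-in mice, moved in the same direction, and their part in the level of Cald1 was not tested.

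In the other direction, 5 upregulated genes had a mean in vehicle App knock-in mice at or below that of vehicle WT mice. Among them were Rrp12 and Rrp15, both of ribosome assembly, Trappc6b of vesicle transport and the pseudogene Rpl3-ps1, which can share reads with its parent gene. Rrp12 was at 13.4, 13.9 and 14.2 CPM in the vehicle WT mice and 17.7, 18.5 and 16.8 CPM in the treated App knock-in mice and at 13.3, 12.7 and 15 CPM in vehicle App knock-in mice (log2 fold change 0.35 ± 0.09). Trappc6b was at 29, 32.1 and 31.4 CPM in the vehicle WT mice and 33.9, 36.5 and 35.5 CPM in the treated App knock-in mice and at 30.6, 29.1 and 28.6 CPM in vehicle App knock-in mice (log2 fold change 0.20 ± 0.06). These were small rises without overlap. The calls of Rrp15 (0.30), Trappc6b and Rpl3-ps1 (0.63) depended on the processing and on which mice were kept. Each was lost with DESeq2 on the compared groups (adjusted p = 0.161, 0.166 and 0.117) and in edgeR without the filter (0.132, 0.154 and 0.106). Rrp15 and Trappc6b were also lost with edgeR on the compared groups (0.0867 and 0.0737), and Rpl3-ps1 with DESeq2 on all libraries (0.0581). Rpl3-ps1 lost its call without any 1 of the 6 mice (adjusted p 0.0521 to 0.122). Trappc6b was lost without treated mouse 2 or 3 or WT mouse 1 or 3 (adjusted p 0.0534 to 0.116), and Rrp15 without treated mouse 1 or 3 or WT mouse 1 or 2 (0.0569 to 0.115).

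**Figure D5:**
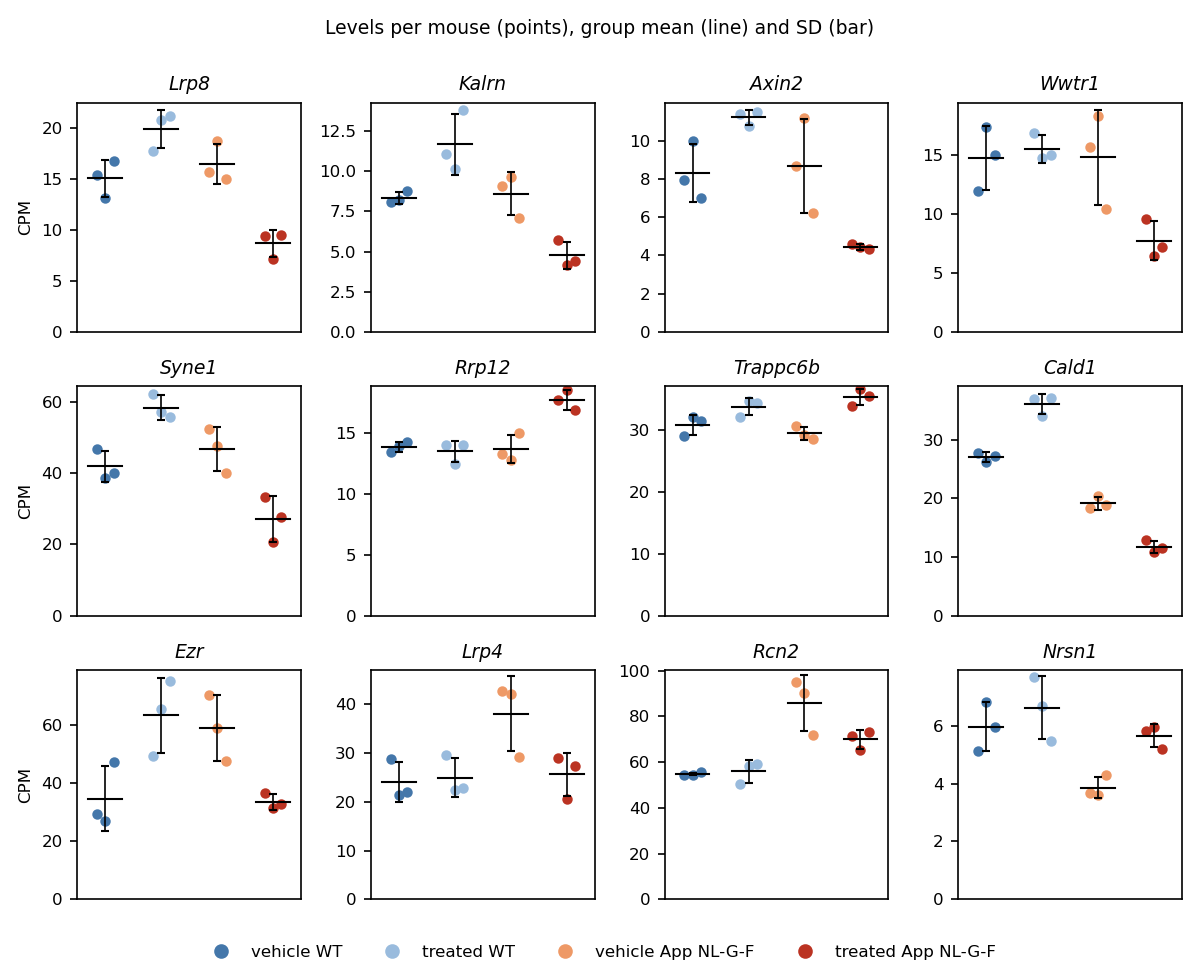
Levels of 12 genes in CPM (linear axis from 0) in each of the 12 mice (points, 3 per group), with the group mean (line) and SD (bar). Lrp8, Kalrn, Axin2, Wwtr1, Syne1 and Cald1 are lowest in treated App knock-in mice, Rrp12 and Trappc6b are highest there in the mean, and Ezr, Lrp4 and Nrsn1 overlap with vehicle WT mice, while Rcn2 lies above them.

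Other genes were changed in vehicle App knock-in mice and lay close to the healthy level in treated ones. Genes were taken that passed the test there and whose 95% interval here lay within 1.5-fold, and genes from the 8 with the largest change there are described without a test, since they were chosen on these values. Ezr, which links membranes to actin (ENSMUSG00000052397, chromosome 17 from 6738041 to 6782784), was at 29.4, 27 and 47.4 CPM in the vehicle WT mice and 36.6, 31.4 and 32.8 CPM in the treated App knock-in mice and at 70.5, 58.9 and 47.8 CPM in vehicle App knock-in mice. The treated mice lay inside the WT range (-0.04, 95% interval -0.52 to 0.44), although treated WT mice reached 49.3, 65.6 and 75 CPM. Without WT mouse 3 the value of Ezr was 0.25. Lrp4, a receptor of agrin (0.10, 95% interval -0.31 to 0.50), Fahd2a (0.21), the neuronal vesicle protein Nrsn1 (-0.08) and AI429214 (0.01) overlapped with the WT mice. Agpat5, an acyltransferase, did not overlap with them and did not pass (0.27, adjusted p = 0.0818). Rcn2, a calcium-binding protein of the endoplasmic reticulum, was at 54.5, 54.4 and 55.5 CPM in the vehicle WT mice and 71.4, 65.1 and 73.3 CPM in the treated App knock-in mice, within 1.5-fold of the WT level but still above it (log2 fold change 0.35 ± 0.10, adjusted p = 0.0149, or 0.0509 without treated mouse 3).

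App and the genes around it ended on both sides of the WT level. App itself was at 837, 702 and 623 CPM in the vehicle WT mice and 653, 495 and 578 CPM in the treated App knock-in mice. The groups overlapped, and the log2 fold change was -0.32 ± 0.16 (95% interval -0.68 to 0.03, adjusted p = 0.132). Itm2b, which encodes the endogenous Bri2 protein that carries a BRICHOS domain, was at 2538, 2828 and 2726 CPM in the vehicle WT mice and 3650.4, 3698 and 3648 CPM in the treated App knock-in mice, a small rise without overlap (log2 fold change 0.44 ± 0.06, adjusted p = 0.000128). Of its relatives, Itm2c rose by 0.76 and Itm2a fell by 1.51 on the log2 scale, the latter with 33.5, 49.5 and 31.4 CPM in vehicle App knock-in mice against 63.4, 66.4 and 70.7 CPM in WT and 22.3, 23.2 and 24.9 CPM in treated App knock-in mice. The App relative Aplp2 had the largest rise of the list (1.80). Of 22 genes for App, its relatives, secretases, amyloid-degrading proteases and Bri proteins, 9 were upregulated and 4 downregulated, and 11 lay within 1.5-fold. The γ-secretase subunits Psen2 (0.67) and Ncstn (0.43) were among the former, and the α-secretase Adam10 (-0.36), Bace2 (-1.79) and the endothelin-converting enzyme Ece1 (-0.44) among the latter.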

How the data were processed

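RNA was measured by sequencing of CD11b+ microglia isolated from the cortex of 12 mice, with 1 library per mouse and 3 mice in each of 4 groups taken from the sample labels. The values are raw read counts per Ensembl gene, deposited by the authors, who trimmed the reads, aligned them to GRCm38 with STAR and counted them with featureCounts 1.5.1. The library kit keeps strand, but the strand setting of the counting, the annotation release and the handling of shared reads are not given in the sources used here, so overlapping genes and close copies are uncertain.

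Of 55487 genes, 26314 had 0 counts in every library. With edgeR 4.0.16 in R 4.3.3, genes were filtered with filterByExpr (minimum count 10), counts were scaled with TMM factors and the quasi-likelihood test was run on all 12 libraries with 1 mean per group, with Benjamini-Hochberg adjustment over the 15425 tested genes. The fit was also run on simulated counts with known changes in a small set of genes, far fewer than were called here, and no statement here rests on it. P-values measure the spread between mice. An exact permutation test of 3 against 3 mice could not go below 0.10. SE and 95% intervals come from the same fit. Symbols, coordinates and biotypes are those of GENCODE for GRCm38, matched to 55227 genes, and promoter windows are from RefSeq.

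The genes named are those of interest to the study, the 8 highest and 8 lowest log2 fold changes with counts of at least 10 in the higher and 3 in the lower group, up to 4 members of each list with the lowest p-values, and up to 8 genes in each direction that fell or rose only in treated App knock-in mice or lay near WT there. Other list members given by name were picked after their values were seen. The comparison and the lists were chosen with earlier results of these data known. Mice with the same number deviated together between the 2 compared groups (correlations of 0.264, 0.136 and 0.168, against -0.185 to 0.040 for other pairs), so a fit with the number as a block was used as an alternative. The labels do not say what a shared number stands for. The other alternatives were DESeq2 1.42.0 (Wald test), its size factors, fits of the compared groups alone, other filters, a fold cutoff and leaving out each mouse. Some genes that fell under the rule for naming are not reported here.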

Additional observations from a re-analysis of the deposited data

Results flagged for a closer look

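Cald1, which encodes an actin-binding protein, was the 1 gene whose level differed between treated and vehicle App knock-in mice at the adjusted threshold in edgeR's quasi-likelihood test (log2 fold change -0.71, adjusted p = 0.0354). It had a log2 fold change of -1.21 in treated and of -0.50 in vehicle App knock-in mice against the same vehicle WT mice. Treated App knock-in mice were lower in 3 of 3 mice. The call between the App knock-in groups was lost with the replicate block, with edgeR on the compared groups alone, and without treated mouse 2 or 3 or vehicle App knock-in mouse 1 or 2.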

How the results depend on the processing

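The number of genes upregulated in treated App knock-in over vehicle WT mice stayed within 1.5 times 3074 under every other filter, tool, scaling and grouping tried, and so did the number downregulated (2911). Without 1 mouse they were 2578 to 2877 and 2289 to 2723. The replicate block gave 3143 and 3171. A cutoff of 1 on the log2 fold change left 860 and 961 genes here, 1063 and 538 between vehicle App knock-in and vehicle WT mice, 831 and 1040 between vehicle App knock-in and treated WT mice, and 0 downregulated between the App knock-in groups. No scaling moved the median of all genes by over 0.1.

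The counts between the App knock-in groups depended most on the processing. Upregulated genes were 0 in edgeR's test, 5 with DESeq2 on all libraries, 1 with DESeq2 on the compared groups and 0 to 2 without 1 mouse. Downregulated genes were 1, and 119 and 72 with DESeq2, 0 with edgeR on the compared groups, 25 without the filter, 0 with the replicate block and 0 to 160 without 1 mouse, with 160 when vehicle App knock-in mouse 3 was left out. The cause was not tested.

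Of 211 genes given by name with a test, 198 passed. Of these, 186 passed under every alternative in which they were tested. A stricter filter left some genes untested, and the fold cutoff was not applied to single genes. The other 12 lost their call at least once, among them Bace2 with DESeq2 on the compared groups alone (adjusted p = 0.0657). App, at -0.32, passed with DESeq2 on the compared groups (adjusted p = 0.0499). Ciita and Aldoc passed with DESeq2 on all libraries (adjusted p = 0.0482 and 0.0458), Fth1 without WT mouse 2 (0.0443) and Agpat5 without treated mouse 2 (0.0417). With the block, Slc1a2 was lost (adjusted p = 0.0519), and of the other named genes no call changed. Sign changes were limited to genes near 0 that did not pass. Without 1 mouse, Ezr ran from -0.19 to 0.25 (0.014 without treated mouse 2), Lrp4 from -0.00149 to 0.24, Nrsn1 from -0.18 to 0.031 and AI429214 from -0.15 to 0.13. AI429214 was also at -0.00399 with a filter of 10 counts in every library and at -0.00618 with the block. Among lists, with 10 counts required in every library the downregulated members were 11 channels, 7 collagens, 3 ciliary genes, 4 neuronal and 5 neutrophil markers, since fewer members were tested.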
